A study of Mus musculus with 33 samples.

Results

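The 7 mouse Fc receptor genes Fcgr1, Fcgr2b, Fcgr3, Fcgr4, Fcer1g, Fcgrt and Fcrls were followed through 33 bulk RNA-seq samples of liver and lung macrophages from mice with or without cre-driven deletion of Zeb2, which encodes a transcription factor. They were taken by symbol from the 24421 genes counted in every sample, without regard to their values. All mice were 6 to 8 weeks old and carried Zeb2 fl/fl alleles, in which loxP sites flank part of the Zeb2 gene. Per its methods, the study mixed male and female mice within each experiment, and sex was not a term in the tests here. Mice without a cre transgene gave the CRE- Kupffer cells (KCs, the resident macrophages of the liver, n = 6) and CRE- alveolar macrophages (AMs, the resident macrophages of the lung airspaces, n = 5). Clec4f-cre x Zeb2 fl/fl mice express cre under a KC gene, with some reporter activity in a minor population of B cells that lack Clec4f protein, and their KCs were sorted into Tim4+ KCs and Tim4- KCs (n = 6 each). The study relates Tim4 on KCs to the time they have spent in the tissue. Tim4+ and Tim4- KCs can therefore also differ in that time and in origin. Itgax-cre x Zeb2 fl/fl mice express cre from the gene for CD11c, which also acts in other CD11c-expressing cells, and their AMs were sorted into CD11b- AMs and CD11b+ AMs (n = 5 each). The study found that part of the CRE+ macrophages in both tissues retained a copy of Zeb2. It told these cells by surface markers other than Tim4 and CD11b, so the CRE+ groups here can be mixtures of cells with 1 copy and with none. The labels do not say whether the replicates of a group came from separate mice, so p-values measure the spread between these samples.

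Fc receptors bind the constant part of antibodies and so tie immune complexes and antibody-coated particles to the cell that holds them. Fcgr1 encodes CD64, the receptor of high affinity for monomeric IgG, while Fcgr3 (CD16) and Fcgr4 encode activating receptors that bind mainly complexed IgG. All of these activating receptors need the Fc receptor gamma chain encoded by Fcer1g, whose ITAM recruits the kinase Syk and starts phagocytosis. Fcgr2b (CD32B) encodes the inhibitory receptor, which carries an ITIM and recruits the phosphatase SHIP1. In the liver, sinusoidal endothelial cells are a known and abundant source of it, beside macrophages and B cells. Fcgrt encodes the heavy chain of the neonatal Fc receptor FcRn, which pairs with beta-2-microglobulin and returns IgG and albumin from endosomes to the cell surface. Fcrls encodes a secreted Fc receptor-like protein that is best known as a gene of microglia.

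Of the 7 genes, 4 lie within 275.7 kb of chromosome 1 in the GRCm38 (mm10) annotation GENCODE M21. Fcgr2b spans 170958617 to 170976547, Fcgr4 171018920 to 171029761, Fcgr3 171051174 to 171064935 and Fcer1g 171229572 to 171234365, with Fcgr4 on the + strand and the others on the - strand. Fcgr1 lies on chromosome 3 from 96282909 to 96293969, Fcrls on the same chromosome from 87250758 to 87263738 and Fcgrt on chromosome 7 from 45092990 to 45103851, all on the - strand. Fcgr2b and Fcgr3 are close copies over part of their length and share 213 stretches of 35 bases, the shortest read kept. These make up 12.29% of the Fcgr3 stretches, and 7.66% of the Fcgr2b stretches are shared with Fcgr3 or other genes, Gm38204 among them. Reads from such stretches could have been lost or split. Exons of Fcgr2b also overlap the antisense gene Gm38204, and whether the counting used strand is not stated.

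The sequence before the transcription start is shown for Fcgr4 and Fcgr1, the members with the most similar profiles over the samples, and for Fcgrt, whose profile differed from theirs. The sequences are from RefSeq (GRCm38.p6), read 5′ to 3′ on the strand of the gene, and exonic bases are left off. Capitals mark TTCCTC, which is GAGGAA on the other strand and forms the core of sites for PU.1, the ETS-family factor that is required for macrophage development.
Fcgr4, chr1:171018676-171018919, + strand: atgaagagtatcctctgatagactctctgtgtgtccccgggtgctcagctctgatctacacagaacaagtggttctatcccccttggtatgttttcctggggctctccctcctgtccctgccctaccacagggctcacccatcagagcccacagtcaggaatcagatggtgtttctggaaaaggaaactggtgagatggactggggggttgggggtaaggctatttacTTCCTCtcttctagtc
Fcgr1, chr3:96293970-96294219, - strand: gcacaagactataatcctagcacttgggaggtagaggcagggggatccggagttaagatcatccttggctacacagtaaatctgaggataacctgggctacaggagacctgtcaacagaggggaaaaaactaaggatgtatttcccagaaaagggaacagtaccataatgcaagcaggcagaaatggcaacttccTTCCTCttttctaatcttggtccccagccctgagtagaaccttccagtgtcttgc
Fcgrt, chr7:45103852-45104072, - strand: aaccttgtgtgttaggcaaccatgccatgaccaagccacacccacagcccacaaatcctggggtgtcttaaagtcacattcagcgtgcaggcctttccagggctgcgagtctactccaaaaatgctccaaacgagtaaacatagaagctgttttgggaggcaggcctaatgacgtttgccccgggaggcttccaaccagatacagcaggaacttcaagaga
With the base before the RefSeq start counted as -1, the capitals stood at -22 to -17 in Fcgr4 and -55 to -50 in Fcgr1. On either strand, 4 of the 7 genes had these letters within 250 bases, against 23.36% of all 32536 RefSeq mouse promoters. The other two were Fcgr3, at -6 to -1, and Fcrls, at -144 to -139. Their RefSeq starts lie 5532 and 214 bases inside the GENCODE gene, so both matches fall within the annotated gene and are not printed. Within the last 60 bases, a window chosen after the matches were seen, 3 of 7 genes had the letters (Fcgr3 included), against 6.11% of all promoters. The E-box CACCTG or CAGGTG, which ZEB factors bind, was found in 0 of 7 windows against 17.29% of all, and TATAAA in 1 of 7, that of Fcrls, against 12.31%. These matches are letters in a window and were not tested as binding sites.

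The gene counts summed to 9837240 to 24332306 reads a sample (median 20683608), with Tim4- KC replicate 1 the shallowest. Zeb2 itself was lower in every CRE+ group. It had 282.7 ± 38.72 CPM (reads of a gene relative to all reads counted, scaled by edgeR's TMM factors; mean ± SD) in CRE- KCs, 174.8 ± 25.9 in Tim4+ KCs and 169.9 ± 16.32 in Tim4- KCs. In AMs it had 193.6 ± 16.29 CPM without cre, 105.1 ± 11.91 in CD11b- AMs and 62.1 ± 7.882 in CD11b+ AMs. The counts cover the whole gene, including exons outside the floxed part. The 8 marker genes of KCs summed to 28320 to 31180 CPM in CRE- KCs, 18620 to 21100 CPM in Tim4+ KCs and 13730 to 15310 CPM in Tim4- KCs, where 8 of 8 were lower than in CRE- KCs. Those of AMs summed to 19570 to 29900 CPM in CRE- AMs, 22590 to 31920 CPM in CD11b- AMs and 40130 to 55080 CPM in CD11b+ AMs. Most of this sum was Chil3, with a mean of 24200 CPM in CRE- AMs and 42550 CPM in CD11b+ AMs. Of the 8 AM genes, 3 were called higher and 5 lower in CD11b+ than in CRE- AMs (median log2 difference -0.752). In CD11b- AMs 1 was higher and 4 were lower than in CRE- AMs. CD64 was among the surface markers by which the study gated both KCs and AMs, so cells without it may have been left out of the sort.

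In macrophages with intact Zeb2, Fcer1g was the most abundant of the 7 transcripts per unit length in both tissues, while Fcgr1 and Fcgr4 differed most between KCs and AMs. Per kilobase of exon, Fcer1g stood at 1176 CPM per kb in CRE- KCs and 839.0 CPM per kb in CRE- AMs. Fcgr3 had 442.0 and 290.2 CPM per kb and Fcgrt 414.3 and 388.2 CPM per kb, so that Fcgr3 ranked next in KCs and Fcgrt in AMs. Fcgr4 had 283.8 CPM per kb in KCs and 87.11 CPM per kb in AMs, and Fcgr1 had 122.5 and 32.27 CPM per kb. The inhibitory Fcgr2b was the lowest of these 6 genes at 16.03 CPM per kb in KCs and 13.36 CPM per kb in AMs. Fcrls was near the detection floor in both.

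Fcgr1 ranged from 289.9 to 330.7 CPM in the 6 CRE- KC samples with a median of 322.3 CPM, and had 92.06, 92.47, 73.44, 80.49 and 79.26 CPM in the 5 CRE- AM samples. Fcgr4 ranged from 315.9 to 405.5 CPM in CRE- KCs (median 360.5 CPM) and had 102.4, 126.6, 112.4, 108.3 and 97.37 CPM in CRE- AMs. For both genes every KC sample lay far above every AM sample. With edgeR's quasi-likelihood test, Fcgr1 was 3.83-fold higher in KCs (log2 difference 1.94, SE 0.073, adjusted p = 1.34e-11) and Fcgr4 3.28-fold higher (1.72, SE 0.089, adjusted p = 4.46e-10). Fcgr3 was 1.53-fold higher in KCs (0.62, SE 0.07, adjusted p = 2.25e-06), and Fcer1g, the chain they share, 1.41-fold higher (0.50, SE 0.067, adjusted p = 1.38e-05). These 4 of the 6 genes tested were called higher and 0 lower, where 33.3% of all genes tested were called higher in KCs and 29.9% lower. Fcgr2b did not pass (log2 difference 0.27, 95% interval -0.32 to 0.87, adjusted p = 0.407), nor did Fcgrt (0.10, interval -0.05 to 0.26, adjusted p = 0.229). The Fcgr2b call was sensitive to CRE- KC replicate 6, which had the lowest level of its group at 33.03 CPM, since without it the gene was called higher in KCs (0.45, adjusted p = 0.0441). It was also called higher in an alternative other than leaving out 1 sample, and over all alternatives the log2 difference ranged from 0.062 to 0.583.

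**Figure D1:**
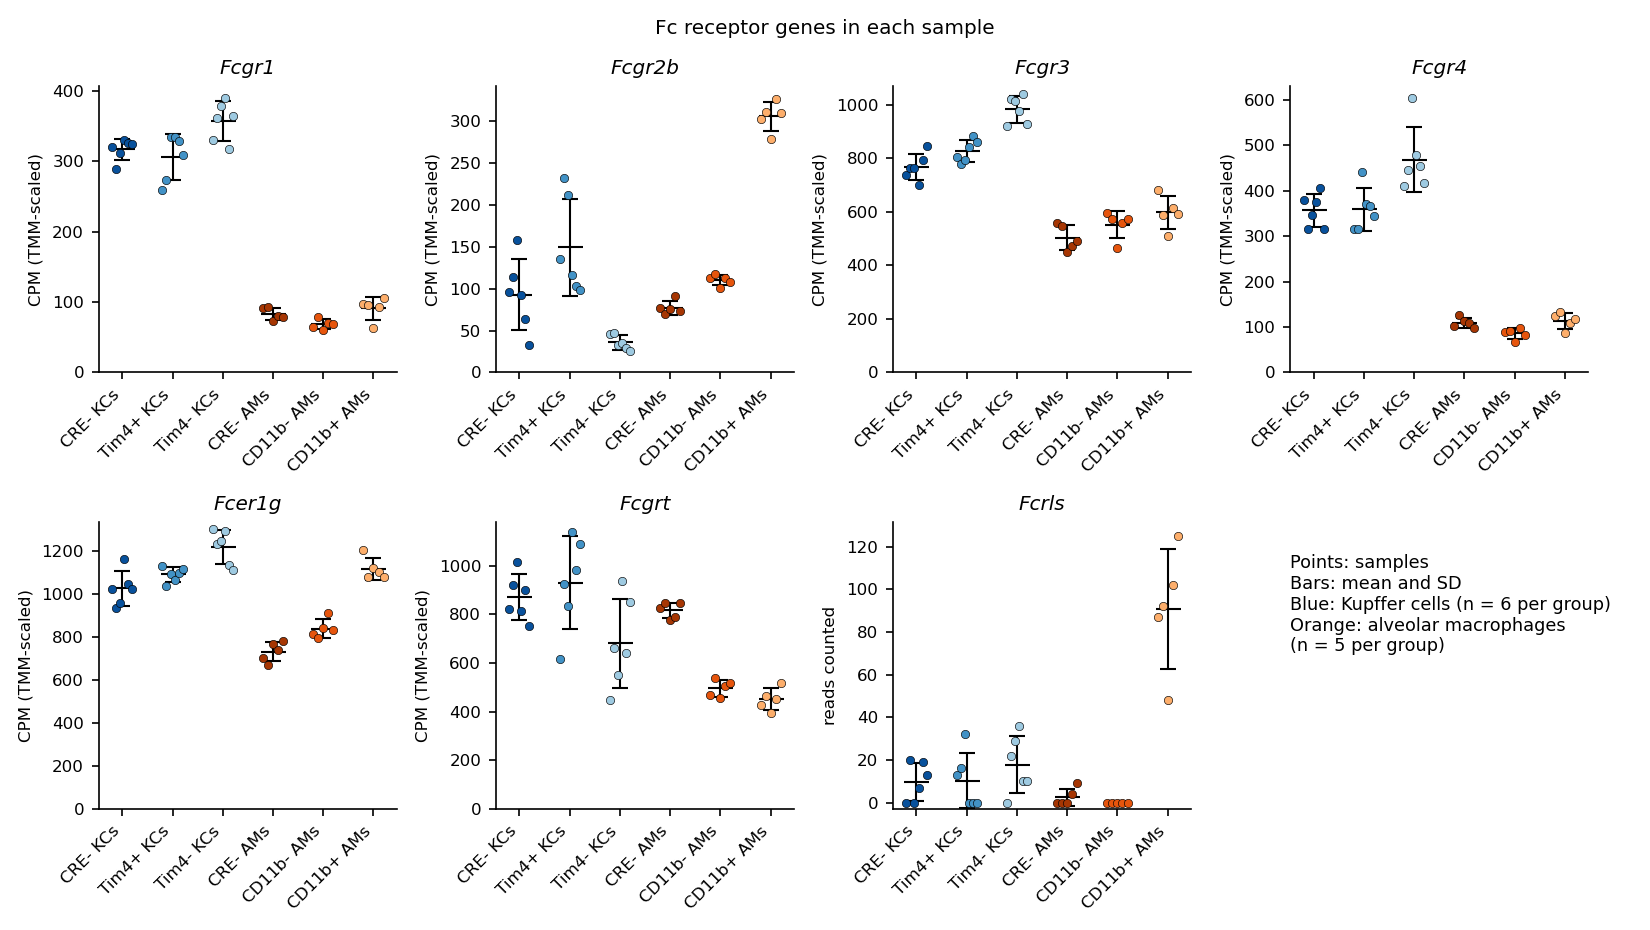
Level of each of the 7 genes in every sample (TMM-scaled CPM from 0, and reads counted for Fcrls), with the samples in 6 groups and bars for the mean and SD (n = 6 per KC group, n = 5 per AM group). Fcgr1 and Fcgr4 lie at separate heights in KCs and AMs, Fcgr2b spreads from 25.85 CPM in a Tim4- KC sample to 326.5 CPM in a CD11b+ AM sample, and Fcrls has 48 to 125 reads in the CD11b+ AM libraries.

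After loss of Zeb2, Fcgr2b was the Fc receptor gene with the largest difference among the KC groups, and it was lowest in Tim4- KCs. It ranged from 33.03 to 158.0 CPM in CRE- KCs (median 93.75 CPM), from 98.41 to 232.1 CPM in Tim4+ KCs (median 125.5 CPM) and from 25.85 to 46.91 CPM in Tim4- KCs (median 33.58 CPM). Every Tim4+ sample lay above every Tim4- sample, whereas 1 CRE- sample, replicate 6, lay within the Tim4- range. Relative to CRE- KCs, Fcgr2b fell by 1.40 on the log2 scale in Tim4- KCs (SE 0.289, adjusted p = 0.00118). Against Tim4+ KCs it was lower by a log2 difference of -2.07 (SE 0.294, adjusted p = 8.71e-05), and it was lower in 6 of 6 same-numbered pairs, by -2.714 to -1.566. In Tim4+ KCs against CRE- KCs its log2 difference of 0.67 did not pass (interval 0.08 to 1.25, adjusted p = 0.211), although it did with the replicate number as a block (0.71, adjusted p = 0.0141). With KC replicates 5 and 6 alone the difference between Tim4- and CRE- KCs was -0.848 and did not pass (adjusted p = 0.0841), while with replicates 1 to 4 it was -1.541 (adjusted p = 0.000304). This split was made because replicates 5 and 6 differ from the others in carrying Ddx3y transcripts and no Xist.

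Transcripts of liver endothelium varied with Fcgr2b over the same samples. The 8 endothelial marker genes listed (Stab2, Clec4g, Cdh5, Ptprb and Dnase1l3 among them) summed to 1390, 1701, 2051, 1402, 1229 and 833.1 CPM in CRE- KC replicates 1 to 6, where Fcgr2b had 95.49, 114.1, 158.0, 92.0, 64.35 and 33.03 CPM. In Tim4+ KCs they summed to 1636, 3092, 2282, 1311, 1152 and 1315 CPM beside 134.9, 232.1, 211.4, 116.1, 103.0 and 98.41 CPM of Fcgr2b. In Tim4- KCs they summed to 594.1, 638.3, 564.3, 542.5, 512.6 and 502.0 CPM beside 45.52, 46.91, 32.19, 34.96, 29.14 and 25.85 CPM. In each of the 3 groups the sample richest in endothelial transcripts was also the richest in Fcgr2b. The markers were lower in Tim4- KCs for 8 of 8 genes against CRE- KCs (median log2 difference -1.34) and for 7 of 8 against Tim4+ KCs (median -1.89), and in Tim4+ against CRE- KCs 0 were called higher and 1, Cdh5, lower. The study counts Cdh5 among the core genes of KCs themselves, so the list was also summed without it, a choice made after seeing the data. The 7 remaining genes were lower in Tim4- KCs for 7 of 7 against CRE- KCs (median -1.44) and for 6 of 7 against Tim4+ KCs (median -1.89).

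Within CRE- KCs the correlation of both log2 levels was r = 0.989 (n = 6, exact permutation p = 0.00278, adjusted p = 0.00833 over 3 groups, rho = 0.943, p = 0.0167, adjusted p = 0.025). Leaving out the 2 samples farthest from the median of the endothelial sum gave r = 0.929. Within Tim4+ KCs r was 0.971 (n = 6, exact permutation p = 0.00556, adjusted p = 0.00833, rho = 0.829, p = 0.0583, adjusted p = 0.0583), and 0.836 without the 2 farthest samples. Within Tim4- KCs r was 0.941 (n = 6, exact permutation p = 0.0111, adjusted p = 0.0111, rho = 0.943, p = 0.0167, adjusted p = 0.025), and 0.868 without them. Without Cdh5 in the sum, r was 0.993, 0.977 and 0.938 in CRE-, Tim4+ and Tim4- KCs. This relation was examined after the values were seen, and both measures come from the same libraries. Replicates 5 and 6, set apart above, had the lowest Fcgr2b of each KC group. They also had the lowest endothelial sums in CRE- and in Tim4- KCs. The permutations shuffled all 6 samples of a group and took no account of this split. In these bulk samples fewer cells of a type and less RNA per cell cannot be told apart, and the part of endothelial RNA in the Fcgr2b differences among KCs was not tested. In AMs the same 8 genes summed to 2.612 to 13.7 CPM, and 5 of the 8 had a mean under 1 CPM.

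**Figure D2:**
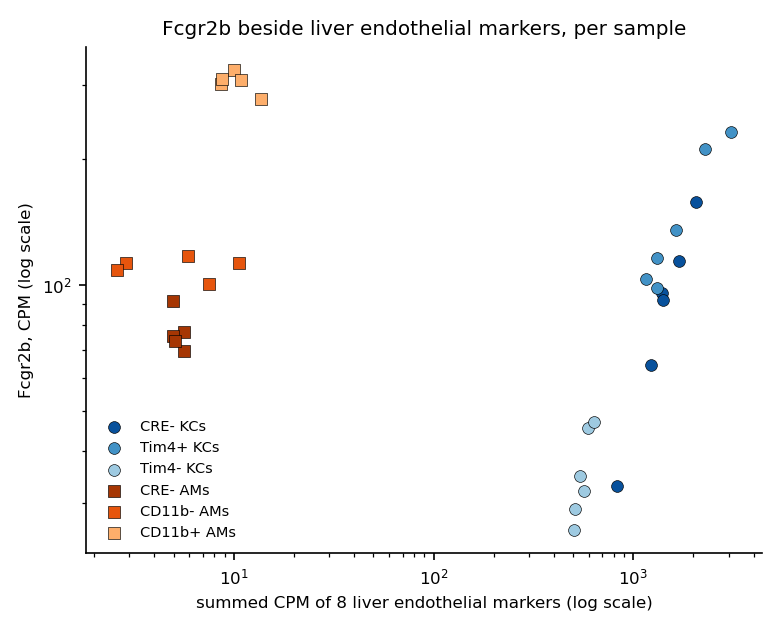
Fcgr2b (CPM, log axis) against the summed level of 8 liver endothelial marker genes (CPM, log axis) in each of the 33 samples, coloured by group. The KC samples run along a rising band with r of 0.941 to 0.989 within groups, while the AM samples have at most 13.7 CPM of the markers at every level of Fcgr2b.

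Fcgr3, Fcgr4 and Fcer1g went the other way in Tim4- KCs, by small steps. Fcgr3 ranged from 698.9 to 845.8 CPM in CRE- KCs (median 763.3 CPM), from 777.9 to 881.5 CPM in Tim4+ KCs (median 823.1 CPM) and from 919.5 to 1040 CPM in Tim4- KCs (median 994.5 CPM). All 6 Tim4- samples lay above all 12 other KC samples. Fcgr3 rose 1.26-fold in Tim4- relative to CRE- KCs (log2 0.34, SE 0.058, adjusted p = 0.000222) and was also higher than in Tim4+ KCs (0.25, adjusted p = 0.00694). Fcgr4 ranged from 315.9 to 405.5 CPM in CRE- KCs, from 315.2 to 441.8 CPM in Tim4+ KCs (median 355.2 CPM) and from 410.7 to 603.3 CPM in Tim4- KCs (median 449.9 CPM). It rose 1.29-fold in Tim4- relative to CRE- KCs (0.37, SE 0.099, adjusted p = 0.00889) with no overlap between these groups, and was higher than in Tim4+ KCs (0.38, adjusted p = 0.0144), whose range it overlapped. Fcer1g, which had 936.4 to 1166 CPM in CRE- KCs and 1112 to 1303 CPM in Tim4- KCs, overlapping ranges, rose 1.17-fold (0.23, SE 0.06, adjusted p = 0.00827). Fcgr1 did not pass in Tim4- against CRE- KCs (0.15, adjusted p = 0.144), and Fcgr1 and Fcer1g did not pass against Tim4+ KCs (0.22, adjusted p = 0.0599, and 0.16, adjusted p = 0.0957).

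Fcgrt, the FcRn heavy chain, had its lowest KC values in the Tim4- group but varied widely between replicates. It ranged from 752.7 to 1017 CPM in CRE- KCs (median 860.0 CPM), from 614.8 to 1140 CPM in Tim4+ KCs (median 952.9 CPM) and from 448.8 to 935.4 CPM in Tim4- KCs (median 652.2 CPM), and the 3 ranges overlapped. The log2 difference of Tim4- from CRE- KCs was -0.37 and did not pass (adjusted p = 0.0869), but it did with the replicate number as a block (-0.425, adjusted p = 0.0191). Between Tim4- and Tim4+ KCs same-numbered samples deviated together, and in 6 of 6 pairs Fcgrt was lower in the Tim4- sample, by -0.612 to -0.285. Here the difference was -0.45 without the pairing (adjusted p = 0.0697) and -0.46 with it (adjusted p = 0.0222). With this pairing Fcgr1 also passed between Tim4- and Tim4+ KCs (0.22, adjusted p = 0.0359).

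In counts, 3 of 7 tested Fc receptor genes rose and 1 fell in Tim4- relative to CRE- KCs, where 12.2% of all genes tested were called higher and 13.2% lower. Between Tim4- and Tim4+ KCs 2 were higher and 1 lower, beside 3.84% and 7.62% of all genes, and with the pairing 3 were higher and 2 lower. In Tim4+ against CRE- KCs 0 were called with edgeR, beside 3.63% of all genes higher and 2.46% lower. Only Fcgr2b had an unadjusted p under 0.05 there (0.0281), limma-voom and DESeq2 called 0 as well, and the others, Fcrls aside, lay between -0.07 and 0.09 on the log2 scale. Fcrls had at most 36 reads in any KC library and summed to 59, 61 and 107 reads over the 6 CRE-, Tim4+ and Tim4- KC libraries. Single genes of other marker lists differed among the KC groups too. B cell markers summed to 50.56 to 99.85 CPM in CRE- KCs, 106.4 to 147 CPM in Tim4+ KCs and 157.9 to 296.6 CPM in Tim4- KCs. In that order Ms4a1 had means of 5.028, 81.09 and 144.4 CPM and Cd79b 47.57, 23.61 and 60.91 CPM, while Pax5 and Ebf1 were under 1 CPM. Of 7 tested, 1 was called higher and 1 lower in Tim4+ than in CRE- KCs. In Tim4- against CRE- KCs 1 was called higher and 0 lower. Ms4a1 encodes CD20, which the study used as a marker of Zeb2-deficient KCs themselves. Classical monocyte markers had medians of 33.62, 51.09 and 143.1 CPM in CRE-, Tim4+ and Tim4- KCs, with Ccr2 at means of 4.978, 21.82 and 115.5 CPM. Ly6c2 and Vcan were under 1 CPM, and 1 of 4 tested was called higher in Tim4- than in CRE- KCs. In its single-cell data the study found Ccr2 in KCs without Tim4 and SiglecF transcripts, which it defined as putative monocyte-derived KCs. The part of these marker genes in the Fc receptor differences was not tested.

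In AMs, Fcgr2b and Fcer1g increased from CRE- to CD11b- to CD11b+ AMs. Zeb2 fell in the same order, as given above, and whether the CRE+ AM groups differ in their share of cells with 1 copy of Zeb2 cannot be told apart here from a graded change per cell. Fcgr2b had 77.26, 69.37, 75.32, 91.46 and 73.49 CPM in the 5 CRE- samples, 112.7, 117.0, 100.7, 113.0 and 108.2 CPM in CD11b- AMs and 302.3, 310.1, 278.4, 326.5 and 309.7 CPM in CD11b+ AMs. The 3 groups did not overlap. Fcgr2b rose 1.42-fold in CD11b- AMs (log2 0.50, SE 0.072, adjusted p = 3.21e-05) and 3.9-fold in CD11b+ AMs (1.96, SE 0.074, adjusted p = 4.77e-14), and was 2.75-fold higher in CD11b+ than in CD11b- AMs (1.46, SE 0.072, adjusted p = 2.02e-11). When all 33 samples shared 1 fit, whose spread includes that of Fcgr2b in KCs, the CD11b- difference did not pass (adjusted p = 0.17). Fcer1g had 703.6, 671.8, 770.6, 739.0 and 781.4 CPM in CRE- AMs, 813.5, 794.6, 841.2, 910.8 and 835.6 CPM in CD11b- AMs and 1205, 1080, 1121, 1104 and 1081 CPM in CD11b+ AMs, again without overlap. It rose 1.14-fold in CD11b- AMs (0.19, SE 0.055, adjusted p = 0.0173) and 1.51-fold in CD11b+ AMs (0.59, SE 0.055, adjusted p = 3.15e-08), and was 1.32-fold higher in CD11b+ than in CD11b- AMs (0.41, adjusted p = 9.92e-06). The CD11b- increase of Fcer1g did not pass without CD11b- replicate 4 (adjusted p = 0.0525).

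Fcgrt went down in both CRE+ AM groups. It had 825.1, 844.5, 776.5, 789.4 and 844.9 CPM in CRE- AMs, 467.2, 536.6, 455.6, 503.4 and 518.9 CPM in CD11b- AMs and 428.7, 465.5, 394.2, 453.6 and 519.3 CPM in CD11b+ AMs. Every CRE- sample lay above every CRE+ sample, and the ranges of both CRE+ groups overlapped. Fcgrt fell to 0.605-fold in CD11b- AMs (log2 -0.73, SE 0.069, adjusted p = 1.91e-07) and to 0.548-fold in CD11b+ AMs (-0.87, SE 0.069, adjusted p = 2.94e-09), and the difference between CD11b+ and CD11b- AMs did not pass (-0.14, adjusted p = 0.114). Its partner chain moved the opposite way, as B2m rose 2.16-fold in CD11b+ AMs (1.11, SE 0.082, adjusted p = 1.06e-09), from 1632 ± 107.6 to 3570 ± 448.6 CPM (SD, n = 5 each).

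The activating receptors had smaller fold changes in AMs than Fcgr2b. Fcgr4 had 88.57, 91.35, 67.99, 98.24 and 83.43 CPM in CD11b- AMs, where it fell to 0.78-fold of CRE- AMs (log2 -0.36, SE 0.11, adjusted p = 0.0218). This call was lost without CD11b- replicate 3 or CRE- replicate 2 (adjusted p up to 0.0707). In CD11b+ AMs Fcgr4 had 123.3, 132.7, 86.48, 109.7 and 117.6 CPM and did not pass against CRE- AMs (0.04, interval -0.19 to 0.27, adjusted p = 0.789), but was 1.32-fold higher than in CD11b- AMs (0.40, SE 0.111, adjusted p = 0.00779). Fcgr1 had 64.44, 79.18, 61.09, 69.78 and 68.55 CPM in CD11b- AMs and 97.49, 95.81, 63.51, 93.75 and 106.4 CPM in CD11b+ AMs. It was likewise 1.32-fold higher in CD11b+ than in CD11b- AMs (0.41, SE 0.114, adjusted p = 0.00877), while neither group passed against CRE- AMs (-0.29, interval -0.53 to -0.05, adjusted p = 0.0669, and 0.11, interval -0.12 to 0.35, adjusted p = 0.45). Fcgr3 had 682.6, 589.2, 509.5, 615.0 and 590.5 CPM in CD11b+ AMs against 557.2, 545.7, 451.6, 473.4 and 491.2 CPM in CRE- AMs, and these ranges overlapped. Its 1.17-fold increase passed (0.23, SE 0.081, adjusted p = 0.0273), but in 5 of 10 fits that left out 1 sample it did not, namely those without CD11b+ replicate 1 or 4 or CRE- replicate 3, 4 or 5 (adjusted p up to 0.0891). Fcgr3 did not pass in CD11b- against CRE- AMs (0.12, adjusted p = 0.295) or in CD11b+ against CD11b- AMs (0.11, adjusted p = 0.33).

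Fcrls had clear counts in CD11b+ AMs, where the 5 libraries held 87, 92, 48, 102 and 125 reads. The CRE- AM libraries held 0, 0, 0, 4 and 9 reads and all 5 CD11b- libraries held 0, which allows up to 3 reads per library and covers counting error only. Every CD11b+ sample lay above every other sample of the series in Fcrls CPM. Against the limit of 3 reads per library, CD11b+ AMs at 4.465 CPM, scaled by library size alone, were at least 30.1-fold higher than CD11b- AMs (adjusted p = 1.71e-05 by edgeR). Over the CRE- mean of 0.1313 CPM, which rests on 13 reads in 2 libraries, the ratio was 34.0 (adjusted p = 1e-04). CD11b- AMs were called lower than CRE- AMs in edgeR (adjusted p = 0.0462), but not with limma-voom (adjusted p = 0.464), and 7 of 10 fits that left out 1 sample lost the call.

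Of 7 genes tested, 2 rose and 3 fell in CD11b- AMs, where 13.3% of all genes tested were called higher and 12.4% lower. In CD11b+ AMs 4 rose and 1 fell, beside 22.8% and 20.5% of all genes, and between CD11b+ and CD11b- AMs 5 were higher and 0 lower, beside 19.8% and 16.6%. Without TMM factors, on library size alone, the median of all genes moved by -0.182 for CD11b+ against CRE- AMs and by -0.168 against CD11b- AMs. Among called genes the share that was higher went from 52.7% to 31.6% and from 54.4% to 30.1%. On that scale Fcgr3 did not pass in CD11b+ against CRE- AMs (0.046, adjusted p = 0.664), Fcgr1 and Fcgr4 did not pass against CD11b- AMs, and Fcgrt did (-0.311), while Fcgr2b, Fcer1g and the decrease of Fcgrt against CRE- AMs kept their calls.

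Genes from the marker lists of other cells moved with the AM groups, although the study gated AMs as CD64+F4/80+SiglecF+CD11c+ cells. Neutrophil markers summed to medians of 47.8, 1354 and 8799 CPM in CRE-, CD11b- and CD11b+ AMs, and 6 of 6 tested were higher in CD11b+ than in CRE- AMs. Most of this was S100a8 and S100a9, at 4439 and 3662 CPM in CD11b+ AMs. From CRE- to CD11b+ AMs Cxcr2 went from 3.245 to 573.1 CPM and Csf3r from 38.24 to 370.2 CPM. Mmp9, Retnlg and Ngp had means of 14.66, 2.831 and 3.319 CPM in CD11b+ AMs. Camp had a mean under 1 CPM in every group but reached 3.477 CPM in CD11b+ AMs. B cell markers had medians of 8.851, 26.32 and 79.06 CPM, mostly Ms4a1. Classical monocyte markers had medians of 12.44, 24.43 and 232.4 CPM, with 5 of 5 tested higher in CD11b+ than in CRE- AMs and Vcan under 1 CPM. Lung epithelial markers had medians of 128.9, 544.2 and 1589 CPM, of which Krt8, Epcam and Cdh1 made up most in CD11b+ AMs. In CRE- AMs Krt8 and Krt18 had means under 1 CPM. Sftpb had a mean under 1 CPM in every AM group, whereas Sftpc, Sftpa1 and Scgb1a1 were not under 1 CPM in any of them. Epcam, like Ms4a1 in KCs, is a gene that the study used to mark Zeb2-deficient macrophages, here AMs. Fcgr2b is also used by B cells, and Fcer1g, Fcgr3 and Fcgr4 by neutrophils and monocytes. The part of RNA from such cells in the AM differences was not tested.

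**Figure D3:**
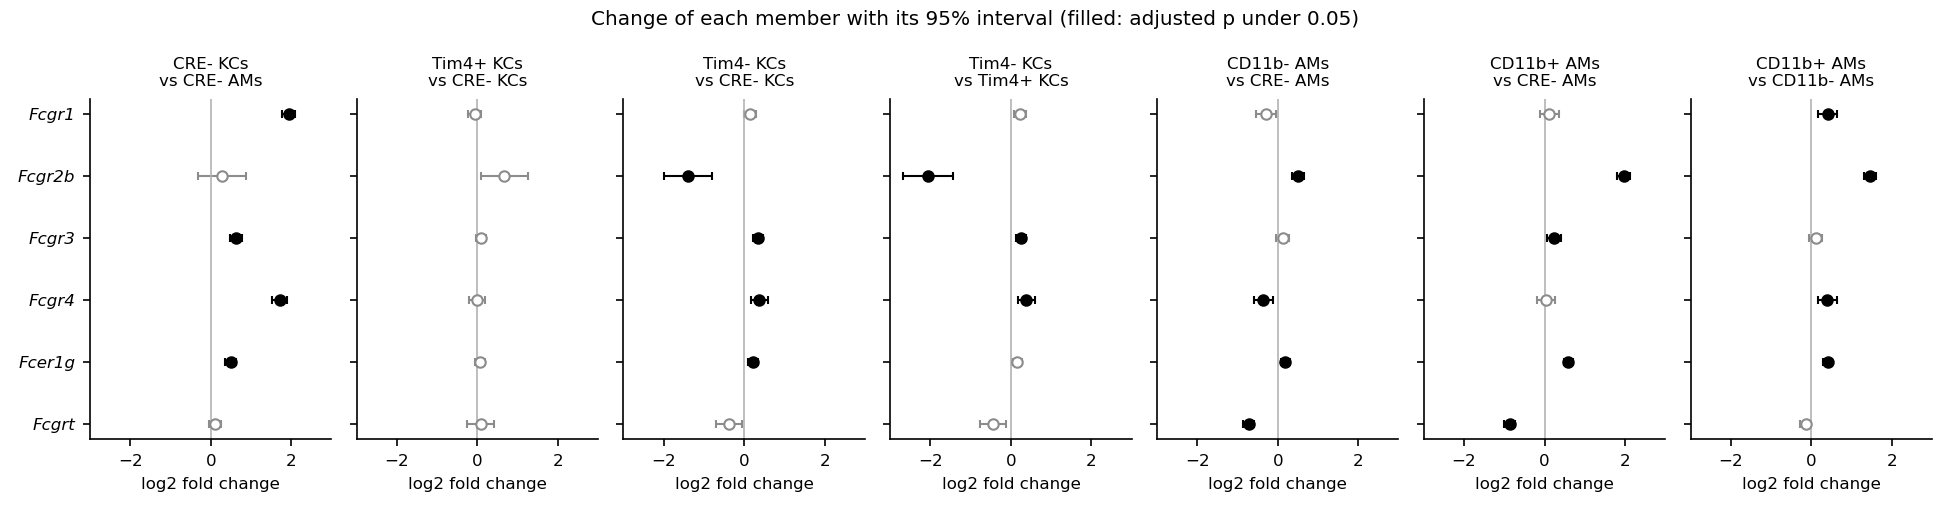
Log2 fold change of 6 Fc receptor genes and its 95% interval in 7 comparisons, from edgeR's quasi-likelihood test, with filled points where the adjusted p was under 0.05. Fcgr2b lies at -1.40 in Tim4- KCs and at 1.96 in CD11b+ AMs, and Fcgrt lies below -0.7 in both CRE+ AM groups.

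The change with Zeb2 loss differed between the tissues for 3 genes, tested as the mean CRE+ change in KCs less that in AMs. The difference was -1.59 for Fcgr2b (SE 0.297, adjusted p = 0.000133), -0.23 for Fcer1g (SE 0.07, adjusted p = 0.0153) and 0.66 for Fcgrt (SE 0.166, adjusted p = 0.00398). Of all genes tested, 10% had a higher and 9.52% a lower change in KCs. Tissue, cre line and sort marker differ together in these groups, so their parts cannot be told apart. In KCs Fcgr2b also varied with the endothelial transcripts given above, whose part was not tested. Between the groups that differed most from their controls, Tim4- KCs and CD11b+ AMs, the change in KCs was lower by a log2 difference of -3.36 for Fcgr2b (SE 0.349, adjusted p = 3.16e-09) and -0.36 for Fcer1g (SE 0.08, adjusted p = 0.000755), and higher by 0.50 for Fcgrt (SE 0.192, adjusted p = 0.0472). Fcrls was called lower as well (adjusted p = 0.0379), and its size depends on the prior count. Here 14.8% of all genes were called higher and 15.7% lower. On library size alone the medians of all genes moved by 0.106 and 0.174, the share of higher among called genes went from 51.3% to 67.0% and from 48.6% to 65.3%, and Fcer1g did not pass (adjusted p = 0.179 and 0.0544). The Fcgrt difference between Tim4- KCs and CD11b+ AMs was lost in 17 of 22 fits that left out 1 sample.

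The order of the 6 groups differed between genes, and neighbours in it were compared in a fit over all 33 samples. For Fcgr1 the order was Tim4- KCs, CRE- KCs, Tim4+ KCs, CD11b+ AMs, CRE- AMs and CD11b- AMs. Its KC groups were not separated from each other (Tim4- less CRE- 0.17, interval -0.01 to 0.36; CRE- less Tim4+ 0.05, interval -0.14 to 0.23). The step from Tim4+ KCs to CD11b+ AMs was 1.75 (adjusted p = 1.67e-16), CD11b+ and CRE- AMs were not separated (0.13, interval -0.08 to 0.33), and CRE- AMs passed over CD11b- AMs in this fit (0.28, adjusted p = 0.0492). Fcgr4 ran from Tim4- KCs through Tim4+ KCs, CRE- KCs, CD11b+ AMs and CRE- AMs to CD11b- AMs. It stepped down by 0.38 after Tim4- KCs (adjusted p = 0.0122), by 1.65 from CRE- KCs to CD11b+ AMs (adjusted p = 2.41e-14) and by 0.35 from CRE- to CD11b- AMs (adjusted p = 0.0348). Its other neighbours were not separated, with 0.01 between Tim4+ and CRE- KCs (interval -0.20 to 0.22) and 0.06 between CD11b+ and CRE- AMs (interval -0.18 to 0.29). Fcgr3 ran from Tim4- KCs through Tim4+ KCs, CRE- KCs, CD11b+ AMs and CD11b- AMs to CRE- AMs. It stepped down by 0.25 after Tim4- KCs (adjusted p = 0.0102) and by 0.36 from CRE- KCs to CD11b+ AMs (adjusted p = 3.77e-05). Its remaining steps were 0.11 (interval -0.03 to 0.24), 0.12 (interval -0.03 to 0.26) and 0.13 (interval -0.02 to 0.28).

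For Fcer1g the CD11b+ AMs stood second, after Tim4- KCs and before Tim4+ KCs, CRE- KCs, CD11b- AMs and CRE- AMs. The first 3 steps were 0.13 (interval 0.01 to 0.24, adjusted p = 0.0513), 0.03 (interval -0.08 to 0.15) and 0.09 (interval -0.02 to 0.20), and then CRE- KCs passed over CD11b- AMs by 0.29 (adjusted p = 3.98e-05) and CD11b- over CRE- AMs by 0.20 (adjusted p = 0.0213). Fcgr2b had the order CD11b+ AMs, Tim4+ KCs, CD11b- AMs, CRE- KCs, CRE- AMs and Tim4- KCs. CD11b+ AMs passed over Tim4+ KCs by 1.03 (adjusted p = 0.000339) and CRE- AMs over Tim4- KCs by 1.12 (adjusted p = 0.000181), while the 3 steps between were not separated, at 0.44 (interval -0.05 to 0.93), 0.25 (interval -0.24 to 0.74) and 0.26 (interval -0.23 to 0.75). Fcgrt had the order Tim4+ KCs, CRE- KCs, CRE- AMs, Tim4- KCs, CD11b- AMs and CD11b+ AMs. Of its steps only that from Tim4- KCs to CD11b- AMs passed (0.46, adjusted p = 0.0044). The others were 0.10 (interval -0.17 to 0.36), 0.09 (interval -0.18 to 0.37), 0.26 (interval -0.02 to 0.54) and 0.13 (interval -0.16 to 0.42).

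As background to these steps, the share of all genes called in either direction in the same fit was 6.95% between CRE- and Tim4+ KCs, 26.7% between CRE- and Tim4- KCs and 13.1% between Tim4+ and Tim4- KCs. Among AMs it was 16.6% between CRE- and CD11b-, 34.2% between CRE- and CD11b+ and 26.7% between CD11b- and CD11b+. Between tissues it was 61.5%, 65.6% and 64.9% for CRE- KCs against CRE-, CD11b- and CD11b+ AMs, 63.0% and 62.6% for Tim4+ KCs against CD11b- and CD11b+ AMs, and 60.6%, 61.7% and 62.2% for Tim4- KCs against CRE-, CD11b- and CD11b+ AMs.

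The balance of activating to inhibitory receptor transcripts was widest in Tim4- KCs and narrowest in CD11b+ AMs. Per unit length, Fcgr4 exceeded Fcgr2b by a median of 18.57 times in CRE- KCs (10.09 to 44.08 over samples), 12.77 times in Tim4+ KCs (6.261 to 16.43) and 67.46 times in Tim4- KCs (41.59 to 86.39). In AMs the same ratio was 6.107 without cre (5.458 to 8.416), 3.6 in CD11b- AMs (3.113 to 4.009) and 1.75 in CD11b+ AMs (1.432 to 1.972), with no overlap among the 3 groups. The high end of CRE- KCs, 44.08, was replicate 6, the sample with the fewest endothelial and Fcgr2b transcripts of its group. Fcgr1 to Fcgr2b had medians of 7.764, 5.364 and 24.69 in CRE-, Tim4+ and Tim4- KCs and of 2.412, 1.382 and 0.6909 in CRE-, CD11b- and CD11b+ AMs. With union exon lengths, Fcgr2b exceeded Fcgr1 in 5 of 5 CD11b+ samples (0.5101 to 0.7688). With the longest transcript, which is shorter for Fcgr2b, it did so in 5 of 5 CD11b- samples as well (ratio 0.7827 to 0.9266). On that length the ratio of Fcgr4 to Fcgr2b in CD11b+ AMs had a median of 1.071 (0.8765 to 1.207), with 2 of 5 samples below 1. Fcgr3 to Fcgr2b had medians of 25.57, 22.04 and 99.03 in the KC groups and of 22.29, 16.43 and 6.337 in the AM groups. Fcer1g stood at medians of 1.346, 1.399 and 1.283 times the sum of Fcgr1, Fcgr3 and Fcgr4 in the KC groups, and of 2.168, 2.262 and 2.607 times in the AM groups. The ratios are described without a test, and those in KCs carry the endothelial transcripts given above.

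**Figure D4:**
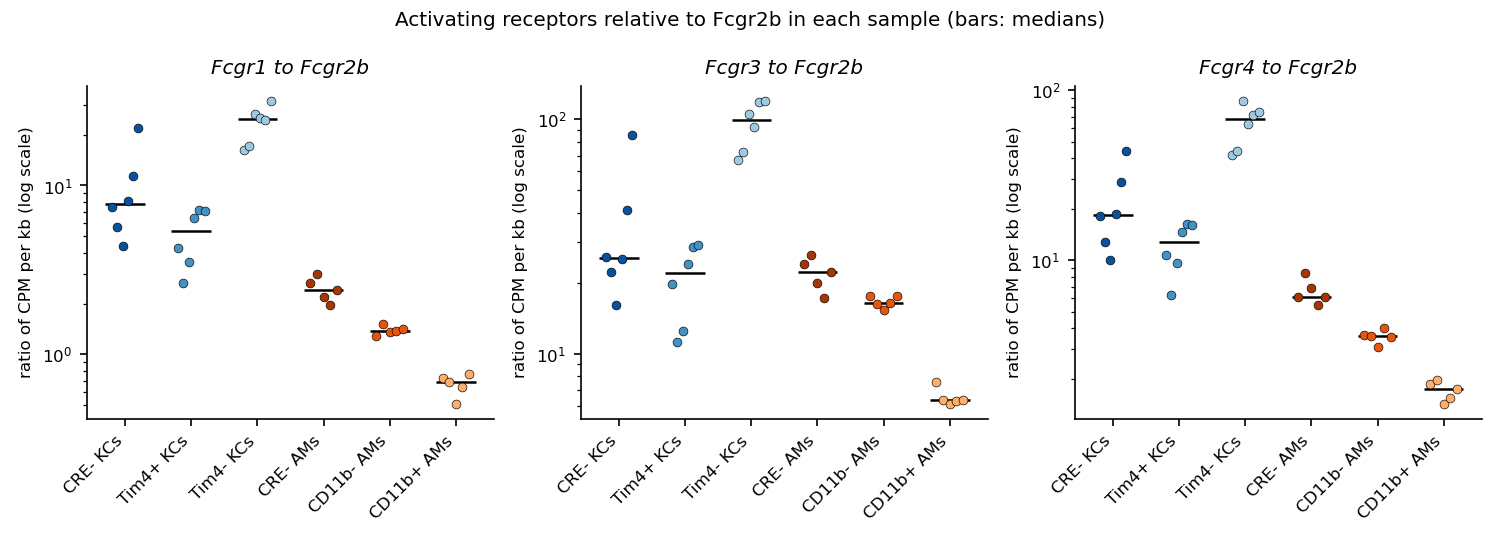
Ratio of each activating receptor gene to Fcgr2b (CPM per kb over CPM per kb, log axis) in every sample, by group, with a bar at the median. Tim4- KCs are at the top, with a median of 67.46 for Fcgr4, and CD11b+ AMs at the bottom, with a median of 1.75.

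As shares of the 4 Fc gamma receptor genes per unit length, Fcgr3 made up 51.15% ± 3.071 (SD, n = 6) in CRE- KCs and 68.57% ± 1.949 (n = 5) in CRE- AMs. Fcgr4 made up 32.81% ± 2.726 and 20.63% ± 1.968, and Fcgr1 14.18% ± 0.5526 and 7.618% ± 0.2305. Fcgr2b made up 1.868% ± 0.878 in CRE- KCs, 2.865% ± 1.163 in Tim4+ KCs and 0.5742% ± 0.1552 in Tim4- KCs. In AMs its share was 3.181% ± 0.4824 without cre, 4.426% ± 0.2264 in CD11b- AMs and 10.14% ± 0.7703 in CD11b+ AMs. The sum of the 4 genes was 864.4, 906.1 and 1083 CPM per kb in CRE-, Tim4+ and Tim4- KCs and 423.0, 431.8 and 522.9 CPM per kb in CRE-, CD11b- and CD11b+ AMs.

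Fcgr1 and Fcgr4, on different chromosomes, had the most similar profiles of any member pair over the 33 samples (r = 0.989 of log2 CPM), and each was the gene most like the other among 8103 genes compared. With the mean of each tissue taken off the correlation was 0.798, and with the mean of each group taken off 0.665. Fcgr1 and Fcgr3 had r = 0.918 over all samples and 0.566 within groups, and Fcgr3 and Fcgr4 0.922 and 0.404. Fcgr2b had r between -0.461 and 0.253 with the 6 other members. The next genes by likeness to Fcgr1 were Tmem51 (0.988) and Hpgd (0.986), and those to Fcgr4, after Fcgr1, were Tmem51 (0.986) and Ly86 (0.977). Fcgr2b was most like Calcrl (0.914), Mfge8 (0.905) and Golga7 (0.881) over the 33 samples, among which CD11b+ AMs had the most Fcgr2b. Fcer1g was most like B2m (0.958), Tapbpl (0.935) and Itgam (0.922), the gene of CD11b, by which the CRE+ AMs were sorted. Fcgr3 was most like 5031439G07Rik (0.943), Fcgrt most like Gm4980 (0.853), and Fcrls most like Tapbp (0.718). Samples share library, tissue and group, and the correlations are a description.

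The other genes of Fc receptor signalling, 75 listed as receptors, partner chains, kinases, adaptors, phosphatases, actin and oxidase genes, changed in both directions. Between CRE- KCs and CRE- AMs 38 of 71 tested were higher in KCs and 24 lower (median log2 difference 0.495, against 0.0286 over all genes tested), where 33.3% of all genes were higher and 29.9% lower. In KCs, 4 of 72 genes were higher and 4 lower in Tim4+ against CRE- KCs (median -0.046), 18 higher and 11 lower in Tim4- against CRE- KCs (0.069), and 6 higher and 6 lower in Tim4- against Tim4+ KCs (0.132). Over all genes the shares were 3.63% and 2.46%, 12.2% and 13.2%, and 3.84% and 7.62%. In AMs, 8 of 69 were higher and 15 lower in CD11b- AMs (-0.041), 24 higher and 20 lower in CD11b+ AMs (0.07), and 24 higher and 12 lower in CD11b+ against CD11b- AMs (0.167), beside 13.3% and 12.4%, 22.8% and 20.5%, and 19.8% and 16.6% of all genes. For the difference between tissues, 16 of 72 had a higher and 12 a lower change in KCs (0.074), and 20 and 16 for Tim4- KCs against CD11b+ AMs (0.105), beside 10% and 9.52%, and 14.8% and 15.7% of all genes. The medians over all genes tested lay between -0.0309 and 0.0286.

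Several genes of the list had large changes. Gsn, encoding the actin-severing protein gelsolin, rose in all 4 CRE+ groups, 3.64-fold in Tim4+ KCs (adjusted p = 6.91e-06), 6.68-fold in Tim4- KCs (1.76e-08), 2.37-fold in CD11b- AMs (6.14e-10) and 3.67-fold in CD11b+ AMs (3.06e-13). Fyn, a Src family kinase, fell to 0.586-fold in Tim4- KCs (adjusted p = 0.0101), 0.373-fold in CD11b- AMs (2.51e-06) and 0.221-fold in CD11b+ AMs (2.33e-09). Myo10, a motor protein of the phagocytic cup, was 81.6-fold higher in CRE- KCs than in CRE- AMs (adjusted p = 3.9e-09) and fell to 0.357-fold in Tim4- KCs (1.7e-05). Among inhibitory genes, Lilrb4a rose 2.66-fold (adjusted p = 1.78e-11) and Dok2 fell to 0.155-fold (2.24e-10) in CD11b+ AMs, where Rac2, a GTPase of the oxidase and the cytoskeleton, fell to 0.326-fold (5.89e-10). Ncf1, the oxidase subunit p47phox, fell to 0.571-fold in CD11b- AMs (0.000127), and Ncf4, its partner p40phox, rose 1.34-fold in Tim4- KCs (0.000972). Fcrl1, a receptor-like gene of B cells, rose from 22.4 CPM in CRE- KCs to 39.83 CPM in Tim4+ KCs (adjusted p = 0.000774) and 49.73 CPM in Tim4- KCs (6.49e-06), beside the B cell markers given above.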

How the data were processed

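RNA of 25000 FACS-purified cells per sample was sequenced in bulk. Per the labels and the study's methods, the authors checked reads with FastQC 0.11.4, trimmed them with Trimmomatic 0.35 (reads under 35 bases discarded), mapped them to the mouse genome (mm10 in the submitters' processing notes) with TopHat2 2.1.0, used SAMtools 0.1.18 and counted reads per gene with HTSeq-count. The deposited values are raw counts. The annotation and the HTSeq version are not given in the sources used here. Reads that fitted several genes (1.19 to 1.391% per sample) or no feature (4.522 to 8.899%) stood in tally rows, which were left out.

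Groups and replicate numbers came from the labels. Counts were tested with edgeR 4.0.16 in R 4.3.3 (TMM, filterByExpr, quasi-likelihood) within KCs, within AMs, between CRE- groups and over all 33 samples for interactions and the order of groups. P-values were adjusted by Benjamini-Hochberg over all genes tested, with a threshold of 0.05. SE is the log2 fold change over the square root of F, and log2 CPM used a prior count of 0.5. Lengths are union exons of GENCODE M21 (95.72% of symbols found). Promoters are RefSeq GRCm38.p6, with entries for all 7 genes, and the Fcgr2b window, mostly exonic, is not printed. Python 3.11.15, pandas 2.3.3, numpy 2.4.6 and matplotlib 3.10.9 were used for tables and figures, and scripts were tested on simulated counts.

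Alternatives were limma-voom (limma 3.58.1, the study's method), DESeq2 1.42.0, other scalings and filters, the replicate block, 1 fit of all 33 samples, subsets of replicates and 77 fits without 1 sample. The main tests were unpaired. Tim4- and Tim4+ KCs of the same number were also compared as pairs, through the replicate block, because every pair's deviations correlated (r 0.112 to 0.251). No replicate pair was alike within sampling noise (chi-square per gene at least 12.8 over 75 pairs). Comparisons within a tissue share samples.

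Named genes are the 7 members, the 3 genes most like each by correlation (mean of at least 3 log2 CPM) and, from the signalling list, up to 3 called genes per direction and comparison with the largest change, provided the group with more of the gene averaged 5 log2 CPM or above. Not all are described, and some items are not reported here. The members and lists were chosen with earlier results of these data known.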

Additional observations from a re-analysis of the deposited data

Results flagged for a closer look

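Among 36 combinations of gene and group, 2 held a sample set far apart from the others by Dixon's criterion, which chance alone meets in about 1 in 20 groups. These were Fcgr1 in CD11b+ AM replicate 3, the lowest of its group at 63.51 CPM, and Fcgr3 in CD11b- AM replicate 3, the lowest at 464.4 CPM. Replicate 3 was also the lowest of both other AM groups for Fcgr1 (73.44 CPM in CRE- and 61.09 CPM in CD11b- AMs) and for Fcgr3 (451.6 CPM in CRE- and 509.5 CPM in CD11b+ AMs).

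Changes with Zeb2 loss that differed between KCs and AMs by the interaction test of edgeR are listed with their log2 differences, KC change less AM change. Taking the mean of both CRE+ groups in each tissue, they were Fcgr2b (-1.593), Fcer1g (-0.233) and Fcgrt (0.656). Between Tim4- KCs and CD11b+ AMs they were Fcgr2b (-3.361), Fcer1g (-0.359), Fcgrt (0.498) and Fcrls (-4.362), the last of which depends on the prior count.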

How the results depend on the processing

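Over 797 alternatives of the 33 gene results that passed the test, 0 reversed and 87 no longer passed, 66 of them with the added fold rule left aside. The KC to AM difference of Fcgr1, Fcgr4, Fcgr3 and Fcer1g, the difference of Fcgr2b between Tim4- and Tim4+ KCs, and in CD11b+ AMs the differences of Fcgr2b, Fcer1g and Fcgrt from CRE- AMs passed under all alternatives run except, for some, the fold rule.

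The number of Fc receptor genes passing between Tim4- and Tim4+ KCs was 3, and it was 6 with DESeq2, 5 with all 33 samples in the fit and 5 with the replicate block, which pairs these groups. The count over all genes rose as well, from 1433 to 1885, 1738 and 1684. In Tim4+ against CRE- KCs the block gave 1 gene, Fcgr2b, in place of 0. In no other comparison did every pair of same-numbered samples correlate above 0.1 (r from -0.072 to 0.207), and the blocked values given there are for samples taken to share only a number. As a hint from the data, 5 of 5 CD11b+ AM samples correlated best with the CRE- AM sample of their own number (r 0.038 to 0.087) and 4 of 5 with the CD11b- one (0.052 to 0.099), and the block left 5 genes in CD11b+ against CRE- AMs and gave 6 in place of 5 against CD11b- AMs. For the Tim4- KC against CD11b+ AM difference the count of 4 became 2 with at least 10 counts in every sample, where Fcrls could not be tested, and 2 with KC replicates 1 to 4 alone. KC replicates 5 and 6 alone, an alternative chosen after seeing the data, gave 0 genes in Tim4- against CRE- KCs and 1 against Tim4+ KCs, with 2 samples a group. Over all genes, 761 were called in Tim4+ against CRE- KCs, 347 with replicates 1 to 4 and 380 with replicates 5 and 6, and with the latter the other KC counts went from 3169 to 1191 and from 1433 to 232.

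A fold rule, a log2 change above 1 as well, left 2 genes between KCs and AMs (Fcgr1 and Fcgr4), 1 in Tim4- against either KC group (Fcgr2b), 1 in CD11b- AMs (Fcrls), 2 in CD11b+ against either AM group (Fcgr2b and Fcrls), 1 in the mean difference between tissues and 2 in that of Tim4- KCs and CD11b+ AMs. Over all genes the rule left 4045 of 12145 between KCs and AMs. It left 1103 of 12500 in Tim4- against CRE- KCs and 681 against Tim4+ KCs. In AMs it left 752 of 11573 in CD11b-, 1765 in CD11b+ and 1175 between CD11b+ and CD11b- AMs. For the 2 differences between tissues it left 1083 and 1952 of 13294, in the order given. Leaving out 1 sample gave 4 to 5 genes for KCs against AMs, 4 to 5 in Tim4- against CRE- KCs, 3 to 4 against Tim4+ KCs, 3 to 5 in CD11b- AMs, 4 to 5 in CD11b+ AMs, 5 to 6 between CD11b+ and CD11b- AMs, 3 to 4 for the mean tissue difference and 2 to 4 for the other.

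Signs turned in 16 cases, all in results near 0 that did not pass. Fcgr4 in Tim4+ against CRE- KCs was 0.028 on library size alone, 0.003 with at least 10 counts, 0.011 with all 33 samples and -0.075 to 0.046 without 1 sample. Fcgrt there was -0.056 with KC replicates 1 to 4. On library size alone Fcgr1 and Fcgr4 in CD11b+ against CRE- AMs were -0.071 and -0.141, and Fcgr3 in CD11b+ against CD11b- AMs was -0.063. Without 1 sample Fcgr4 in CD11b+ AMs was -0.019 to 0.128, and Fcgr1 for Tim4- KCs against CD11b+ AMs -0.064 to 0.088. The cause of these shifts was not tested. Per-length levels in CRE- KCs with the longest transcript in place of all exons were 26.2 for Fcgr2b, 569.6 for Fcgr3, 1504 for Fcer1g and 492 for Fcgrt in CPM per kb. Depth limits Fcrls most, with at most 36 reads outside CD11b+ AMs.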
